A study of Mus musculus with 4 samples.

Results

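Cohesin is the ring-shaped complex that holds sister chromatids together. The 9 genes described here encode its subunits, chosen by name from the 55820 loci in the deposited table. They fall into 4 classes. The kleisins, which close the ring, are Rec8, Rad21l and Rad21. The STAG subunits, which bind the kleisin, are Stag3, Stag1 and Stag2. The SMC1 subunits are Smc1b and Smc1a, and Smc3 is the partner common to all of these rings. Rec8, Rad21l, Stag3 and Smc1b form the 4 meiotic subunits, and the other 5 are the mitotic subunits, among which Smc3 also serves in meiosis. All 9 passed the filter on low counts.

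In dividing somatic cells and spermatogonia the ring is loaded on chromatin, locked during DNA replication and opened by separase at anaphase. When male germ cells enter meiosis, STAG3, SMC1B, REC8 and RAD21L are built into the chromosome axes, along which homologs pair and recombine. REC8 cohesin also keeps sister chromatids joined until the meiotic divisions, and mice that lack STAG3, REC8, RAD21L or SMC1B have males in which meiosis fails.

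The 4 libraries were made from whole testes of male C57BL/6J mice at postnatal day 10 (P10), an age at which the first germ cells are entering meiosis. In 2 libraries, labelled Mps1sKO, the gene of the checkpoint kinase MPS1 (Ttk) was floxed and deleted in germ cells by Stra8-cre, which acts from early spermatogonia onward. The other 2 libraries were labelled control, with no further detail on their alleles. It is not stated whether a library holds the testes of 1 mouse, so the tests below measure the spread between libraries. The study asked how gene expression differed after Mps1 deletion.

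Libraries held between 23311689 and 28607746 counts, of which mitochondrial genes took 2.52% to 3.14%. Values per library are given below in the order control 1, control 2, Mps1sKO 1, Mps1sKO 2, in CPM (counts relative to the library total, scaled by TMM) unless FPKM is named. Ttk, the targeted gene, was at 27.9, 32.6, 13.0 and 12.2 CPM, which leaves 41.7% of the control mean over all its exons, including those outside the deleted ones. The edgeR quasi-likelihood test gave it a log2 fold change of -1.26 with a Benjamini-Hochberg adjusted p of 0.0461. Testis markers were present, with germ cell (Ddx4, 139 to 221 CPM) and Sertoli cell (Sox9, 123 to 182 CPM) genes in every library.

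Stag3 was the subunit with the largest difference, and it is the member that the study itself measured by qPCR, which was not analysed here. It also stood in a list that the study drew from these same libraries, so its direction here is not independent evidence. Its gene (ENSMUSG00000036928) spans chr5:138280240-138312393 on the plus strand of GRCm38. The primer pair of that qPCR is shown because it fixes which part of the transcript was amplified. Written 5′ to 3′, in lower case with no part marked, the primers are:
Stag3 forward: gagagtctgctggagaaacga
Stag3 reverse: ctcaggaaggatgtccctgta
Both matched the coding sequence of Stag3 and the transcripts of 0 other genes. They enclose 117 bases of the spliced transcript, from exon 8 to exon 10, between chr5:138291455 and chr5:138296717. The counts below cover all exons.

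The 4 meiotic promoters are shown because 3 of these genes were lower in both Mps1sKO libraries and the groups of the other, Rec8, overlapped. Each run is 270 bases, 250 before the RefSeq start of the gene and 20 from it, read 5′ to 3′ on the strand of the gene in GRCm38.p6. Capitals mark TCCCGC, the core of the E2F site, and CACGTG, an E-box. The windows are chr5:138280259-138280528 (plus) for Stag3, chr15:85131938-85132207 (minus) for Smc1b, chr14:55617916-55618185 (plus) for Rec8 and chr2:151668514-151668783 (minus) for Rad21l.
Stag3: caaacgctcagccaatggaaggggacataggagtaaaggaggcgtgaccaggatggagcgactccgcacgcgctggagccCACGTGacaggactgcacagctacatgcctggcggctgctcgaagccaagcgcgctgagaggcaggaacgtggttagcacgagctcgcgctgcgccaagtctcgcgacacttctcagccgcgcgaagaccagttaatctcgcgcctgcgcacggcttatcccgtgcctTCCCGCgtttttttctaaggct
Smc1b: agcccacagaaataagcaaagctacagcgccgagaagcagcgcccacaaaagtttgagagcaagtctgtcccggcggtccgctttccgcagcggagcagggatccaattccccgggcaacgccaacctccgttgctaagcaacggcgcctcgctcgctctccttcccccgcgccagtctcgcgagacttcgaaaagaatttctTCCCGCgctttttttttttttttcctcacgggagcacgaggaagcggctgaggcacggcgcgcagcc
Rec8: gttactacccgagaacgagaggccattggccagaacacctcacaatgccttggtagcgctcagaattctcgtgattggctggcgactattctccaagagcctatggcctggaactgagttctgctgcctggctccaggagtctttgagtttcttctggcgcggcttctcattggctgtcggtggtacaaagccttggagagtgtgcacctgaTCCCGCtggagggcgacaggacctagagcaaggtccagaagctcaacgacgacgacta
Rad21l: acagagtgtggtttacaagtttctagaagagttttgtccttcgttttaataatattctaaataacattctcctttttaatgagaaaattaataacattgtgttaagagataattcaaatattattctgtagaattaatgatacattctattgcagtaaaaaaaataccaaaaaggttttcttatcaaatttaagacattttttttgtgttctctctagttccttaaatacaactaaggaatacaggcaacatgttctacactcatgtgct
Both motifs were searched on both strands in the whole window of 300 bases, and they share no match. Promoter entries were given for 7 of the 9 members, and Rad21 and Stag2 had none. TCCCGC occurred in 6 of these 7 promoters and in 19.98% of 32851 promoters of the same length. In Stag3 it began 2 bases before the start, in Rec8 38 and in Smc1b 47 bases before it. Rad21l was the member without it, with a G+C content of 29.0% against 58.3% to 61.3% in the other 3 meiotic promoters and a median of 52.7% over all promoters. The 6 promoters with TCCCGC had a G+C content of 58.3% to 73.7%. The share over all promoters was not matched for G+C content, so the 2 shares cannot be compared as enrichment. CACGTG occurred in Stag3 alone of the 7, at 170 bases before the start, and in 7.15% of all promoters. Distances are from the RefSeq start. The annotated gene span begins upstream of it, at chr5:138280240 for Stag3 and at chr14:55618037 for Rec8. The whole Stag3 window and the TCCCGC of Rec8 therefore lie inside those spans. These matches describe the letters of the windows and are no test of binding.

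Of the 4 meiotic subunits, Stag3, Smc1b and Rad21l were lower in both Mps1sKO libraries than in both control libraries, to between 65.6% and 69.6% of the control mean, while Rec8 overlapped. The 5 mitotic subunits had log2 fold changes between -0.16 and 0.035. No member passed an adjusted p of 0.05 in edgeR, a call that 0.0292% of the 20561 tested loci passed. Stag3, Smc1b and Rad21l had an unadjusted p below 0.05 in edgeR, as had 1912 of the 20561 tested loci in either direction.

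**Figure D1:**
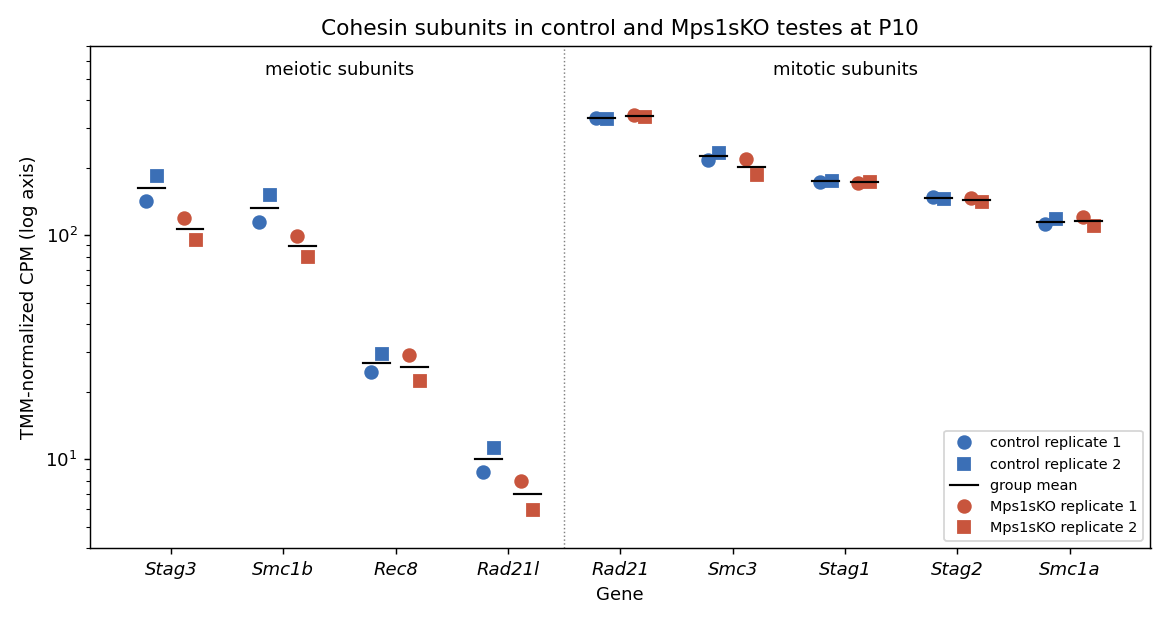
Normalized counts of the 9 cohesin subunits in each library. Points are single libraries in TMM-normalized CPM on a log axis, circles and squares are replicates 1 and 2, and bars are group means (n = 2). Control 2 is the highest and Mps1sKO 2 the lowest library for Stag3, Smc1b and Rad21l, and the groups overlap for Rec8.

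STAG3 is the STAG subunit found in both REC8 and RAD21L rings of the meiotic axis. Stag3 was at 143, 184, 119 and 95.4 CPM, from 3843, 5298, 2752 and 2556 counts. The groups did not overlap, and the gap from control 1 to Mps1sKO 1 was smaller than the gap between the control libraries. The means were 163 ± 29.0 in control and 107 ± 16.5 CPM in Mps1sKO (SD, n = 2). The log2 fold change was -0.61 (SE 0.149, 95% confidence interval -0.96 to -0.26), with an unadjusted p of 0.00393 and an adjusted p of 0.494 in edgeR. With DESeq2 the value was -0.60 and the adjusted p 0.0380, and 0.195% of the loci with an adjusted p in DESeq2 passed as lower. Over the alternatives with all 4 libraries the log2 fold change ran from -0.63 to -0.60 and the adjusted p from 5.9e-06 with no filter on low counts to 0.915 with the replicate number as a block.

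SMC1B replaces SMC1A in most meiotic rings and is needed for telomere protection and for cohesion late in prophase. Smc1b (ENSMUSG00000022432, chr15:85064689-85131964, minus strand) was at 114, 150, 99.3 and 80.3 CPM. Both Mps1sKO libraries were below both control libraries, in the same order as for Stag3. The log2 fold change was -0.56 (SE 0.153, 95% confidence interval -0.92 to -0.21, unadjusted p 0.00686, adjusted p 0.494 in edgeR). Its fold of 1.48 was just under the fold of 1.5 that the study used. Without control 2 the log2 fold change was -0.35.

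RAD21L is the kleisin of early prophase axes. Rad21l (ENSMUSG00000074704, chr2:151645404-151668533, minus strand) was the least abundant member, at 8.80, 11.2, 7.98 and 5.93 CPM from 237, 323, 185 and 159 counts. Control 1 and Mps1sKO 1 lay close together, and the groups were separate by that narrow gap. The log2 fold change was -0.53 with the widest error of the 9 members (SE 0.202, 95% confidence interval -0.998 to -0.057, unadjusted p 0.0326, adjusted p 0.518 in edgeR). It was -0.34 without control 2 and -0.33 without Mps1sKO 2.

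REC8 is the kleisin whose cleavage lets homologs and then sister chromatids part. Rec8 (ENSMUSG00000002324, chr14:55618037-55625395, plus strand) was at 24.5, 29.4, 29.2 and 22.2 CPM. Control 2 and Mps1sKO 1 were the high libraries and were nearly equal, so the groups overlapped. The log2 fold change was -0.071 (SE 0.157, 95% confidence interval -0.44 to 0.29, adjusted p 0.915 in edgeR), an interval that still allows a decrease to the size of -0.44. The sign turned when a library was left out, to 0.063 without control 2 and to 0.11 without Mps1sKO 2.

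At the cut-offs of the study, a fold above 1.5 with an unadjusted p below 0.01, edgeR called 1 member lower, Stag3, where 0.681% of all tested loci were lower. At relaxed cut-offs, a fold above 1.2 with p below 0.05, which the study used for higher genes and which were applied here in both directions, 3 members were lower (Stag3, Smc1b and Rad21l) where 4.95% of all tested loci were, and 0 members were higher where 3.09% of loci were. In 4 of the 9 members (these 3 and Stag1) both Mps1sKO libraries lay below both control libraries, against 21.1% of tested loci, and in 1 member, Rad21, both lay above, against 20.3%. The count at the cut-offs of the study was 3 without control 1 or without Mps1sKO 1, and 0 without control 2 or without Mps1sKO 2. The loci lower in all numbered 140 with every library, 296 without control 1, 256 without Mps1sKO 1, 78 without control 2 and 170 without Mps1sKO 2, so the background moved as well. The member count was also 0 with the replicate number as a block. Without control 1, Stag3 and Smc1b passed an adjusted p of 0.05 in edgeR (0.0186 and 0.0240), in a fit where 76 loci in all passed as lower and 35 as higher, against 6 and 0 with every library.

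Among the mitotic subunits the libraries lay close together. RAD21 is the kleisin of mitotic cohesin, and Rad21 (ENSMUSG00000022314, chr15:51962240-51991747, minus strand) was at 333, 331, 343 and 338 CPM. Its log2 fold change was 0.035 (95% confidence interval -0.16 to 0.23, adjusted p 0.922 in edgeR), although both Mps1sKO libraries were above both control libraries. STAG1 and STAG2 are the STAG subunits of somatic cells. Stag1 (ENSMUSG00000037286, chr9:100597798-100959375, plus strand) was at 173, 175, 171 and 173 CPM, with a log2 fold change of -0.014 (-0.21 to 0.18). Stag2 (ENSMUSG00000025862, chrX:42149317-42277185, plus strand) was at 148, 145, 147 and 140 CPM, with a log2 fold change of -0.028 (-0.23 to 0.17). For both genes the 4 libraries spanned a range narrower than that of any meiotic subunit relative to its mean.

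SMC1A is the mitotic counterpart of SMC1B. Smc1a (ENSMUSG00000041133, chrX:152016428-152062694, plus strand) was at 112, 118, 120 and 110 CPM, with a log2 fold change of 0.0031 (-0.21 to 0.22). Smc3 (ENSMUSG00000024974, chr19:53600398-53645833, plus strand), the subunit that meiotic and mitotic rings have in common, was at 217, 233, 219 and 185 CPM. Its groups overlapped, with Mps1sKO 2 the lowest library. The log2 fold change was -0.16 (SE 0.107, 95% confidence interval -0.41 to 0.091, adjusted p 0.662 in edgeR), and it ran from -0.28 without Mps1sKO 1 to -0.041 without Mps1sKO 2. The median log2 fold change was -0.54 over the 4 meiotic subunits, -0.014 over the 5 mitotic subunits and 0.00027 over all tested loci.

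**Figure D2:**
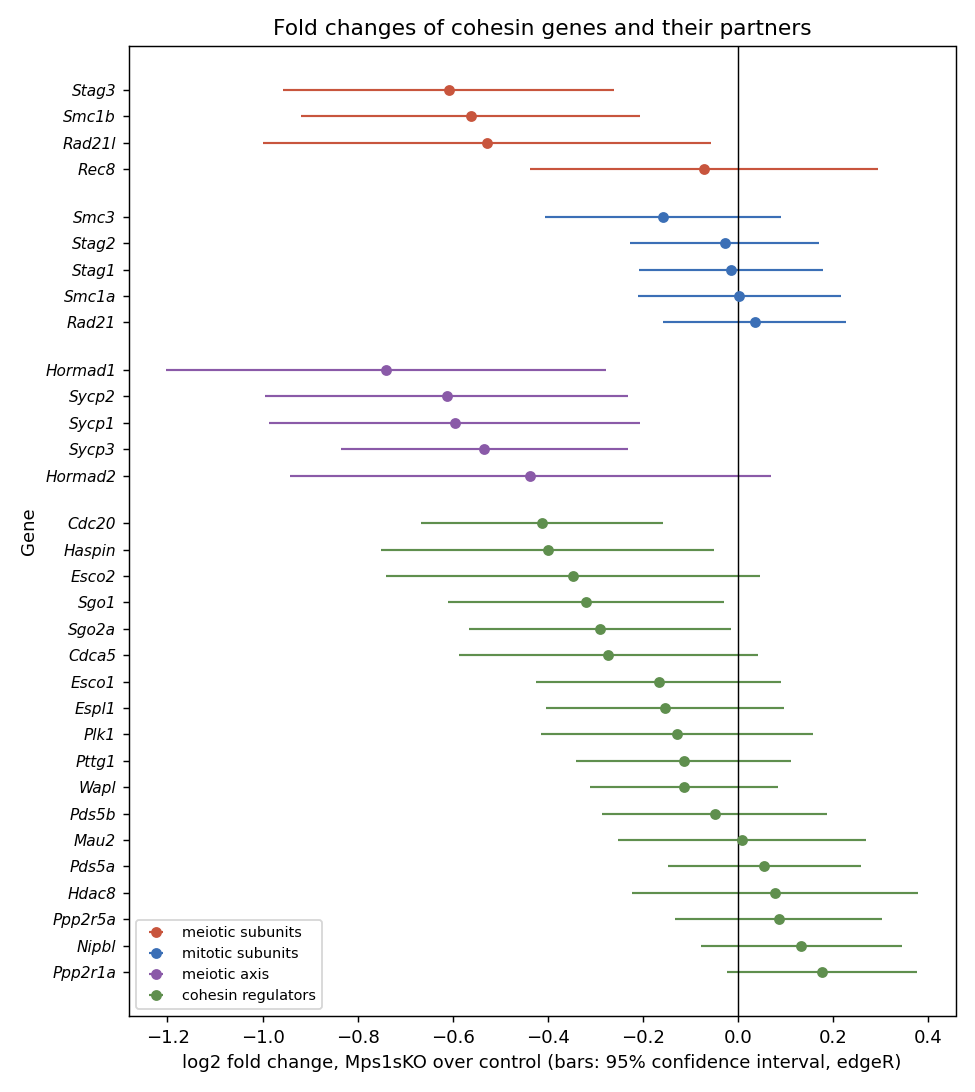
Fitted log2 fold changes of the cohesin subunits, the tested cohesin regulators and 5 partners in the meiotic chromosome axis. Points are edgeR estimates for Mps1sKO over control and bars their 95% confidence intervals. The intervals of Stag3, Smc1b and Rad21l lie below 0, and those of Rec8 and all 5 mitotic subunits cross it.

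Ratios within a library do not depend on how libraries are scaled. Stag3 counts were 0.965 and 1.27 times those of Stag2 in control and 0.808 and 0.680 times in Mps1sKO, a difference of -0.58 on the log2 scale. Smc1b counts were 1.02 and 1.28 times those of Smc1a in control and 0.824 and 0.729 times in Mps1sKO, a difference of -0.56. In both pairs the meiotic subunit had more counts than its counterpart in control 2 and fewer in both Mps1sKO libraries. Counts of different genes also depend on gene length. In FPKM, Smc1b was above Smc1a in every library, at ratios of 1.46, 1.82, 1.18 and 1.04. Stag3 over Stag2 was 1.39, 1.83, 1.17 and 0.981 in FPKM. Stag3 over Stag1 differed by -0.59 and Rad21l over Rad21 by -0.56. Rec8 over Rad21 was 0.0737, 0.0887, 0.0850 and 0.0659, with groups that overlapped and a difference of -0.11. The exact two-sided permutation test gave p = 0.33 for each of the 4 ratios without overlap, adjusted to 0.417 over the 5 pairs, and p = 0.667 for Rec8 over Rad21. With 2 libraries in each group, 0.33 is the smallest p this test can give.

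The meiotic subunits were then set against each other. Rec8 counts were 0.172 and 0.160 times those of Stag3 in control and 0.246 and 0.233 times in Mps1sKO. The ratio was thus higher in both Mps1sKO libraries, by 0.53 on the log2 scale (exact two-sided permutation p = 0.33). Smc1b over Stag3 was 0.802, 0.819, 0.836 and 0.842, and Rad21l over Stag3 was 0.0617, 0.0610, 0.0672 and 0.0622. These ratios differed between the groups by 0.049 and 0.077 on the log2 scale, with no overlap and the same exact permutation p of 0.33. These 3 ratios were chosen after the counts had been seen.

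The pattern of Stag3 over the 4 libraries was compared with every other tested locus, by the root mean square distance between log2 CPM values centred on the gene. The 5 nearest annotated genes were Gm49167 (0.0135), Lin28b (0.0225), Ceacam1 (0.0247), Smc1b (0.0271) and Ugt8a (0.0275). Gm49167 and Ceacam1 were low, under 2 CPM. Rad21l stood at rank 34 and Rec8 at rank 3255 among all tested loci. The order rests on 4 libraries, and likeness of pattern is all that it measures.

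FPKM values, which divide by the length of the gene, allow levels of different subunits to be compared. Rad21 had the highest level of the 9, at 78.0, 77.8, 80.7 and 79.6 FPKM, followed by Smc3 at 38.9, 41.9, 39.4 and 33.4 FPKM. Smc1b was at 28.0, 36.9, 24.4 and 19.8 FPKM and Stag3 at 24.7, 31.8, 20.6 and 16.6 FPKM. By FPKM these 2 meiotic subunits were thus among the mitotic ones in level.

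Smc1a (19.0 to 20.8 FPKM), Stag2 (16.9 to 17.7 FPKM) and Stag1 (14.5 to 14.7 FPKM) followed. The 2 meiotic kleisins were the lowest in every library, Rec8 with 7.56 to 9.94 FPKM and Rad21l with 3.57 to 6.71 FPKM. Stag3, Smc1a and Stag2 exchanged places between libraries, and the ranges of Stag3 and Smc1a overlapped. The lengths in the table count every annotated exon once, 11781 bases for Stag1 against 6186 in its longest coding transcript, so the order of the middle genes depends on the length used. With the longest coding transcript, Rad21 and Smc3 remained the first and second and Rec8 and Rad21l the eighth and ninth in all 4 libraries. Smc1b moved from the third place to between the fourth and the seventh. Stag3 was at rank 3 in both control libraries and in Mps1sKO 1, and at rank 6 in Mps1sKO 2. By that length, Stag3 and Smc1b were below all mitotic subunits in Mps1sKO 2.

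**Figure D3:**
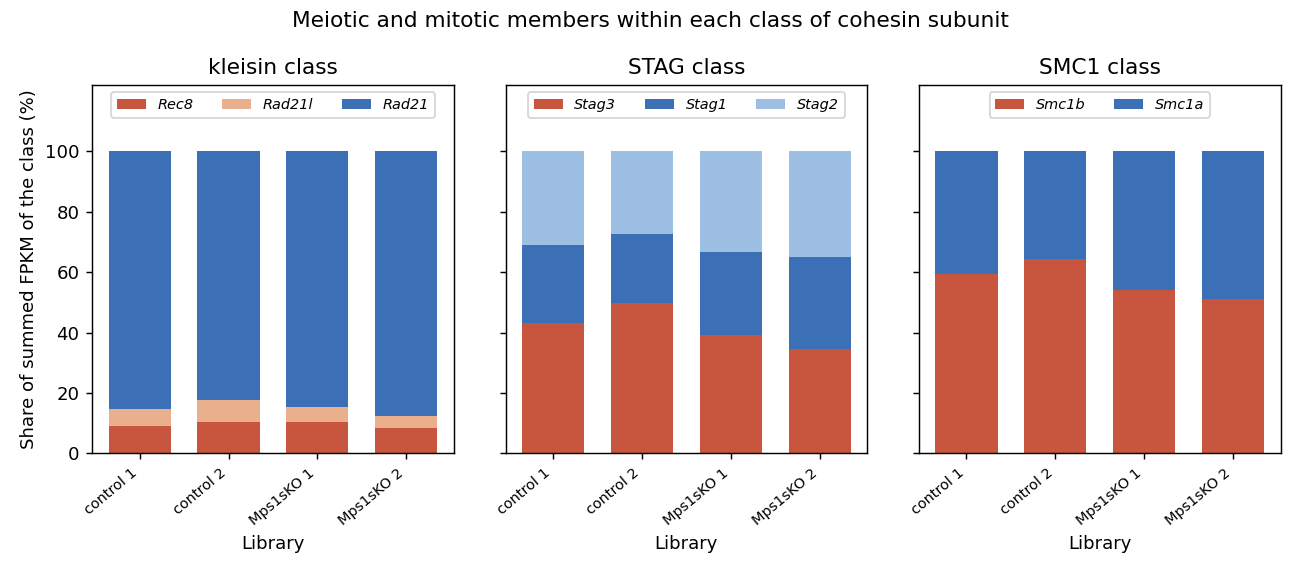
Share of each member in the summed FPKM of its class of cohesin subunit, in percent, for each library. Red and orange are meiotic members, blue are mitotic members. Stag3 and Smc1b take a smaller share in both Mps1sKO libraries than in both control libraries, and Rec8 does not.

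Within the SMC1 class, Smc1b took 59.3% and 64.5% of the summed FPKM in control and 54.0% and 51.0% in Mps1sKO (61.9 ± 3.69% against 52.5 ± 2.16%, SD, n = 2). Within the STAG class, Stag3 took 43.3% and 49.8% in control and 39.1% and 34.5% in Mps1sKO (46.5 ± 4.57% against 36.8 ± 3.25%). Neither pair of groups overlapped. Among the kleisins, Rad21 took most of the signal, and Rad21l took 5.74% and 7.10% in control and 5.02% and 3.93% in Mps1sKO. Rec8 took 9.05% and 10.5% in control and 10.4% and 8.33% in Mps1sKO, with overlap. The 4 meiotic subunits together made up 28.2%, 33.2%, 25.7% and 22.5% of the summed FPKM of all 9. These shares are of RNA and carry no test.

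General germ cell markers were lower beside the meiotic subunits. All 12 genes of a list of general germ cell markers had a negative log2 fold change. The median was -0.41, with a range from -0.51 (Mael) to -0.22 (Dppa3). Of the 12, 9 passed the relaxed cut-offs as lower, where 4.95% of all tested loci did, and 0 passed an adjusted p of 0.05 in edgeR. Ddx4, the RNA helicase that marks all these germ cells, was at 196, 221, 175 and 139 CPM (log2 fold change -0.41). The summed level of the 12 was 1401, 1684, 1314 and 993 CPM, again highest in control 2 and lowest in Mps1sKO 2, and the lowest of them, Dppa3, was detected in every library. In RNA from a whole testis, fewer cells of a type and less RNA per cell cannot be told apart.

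Set against the summed counts of these 12 markers, Stag3 was at 10.2%, 10.9%, 9.04% and 9.60%, Smc1b at 8.17%, 8.93%, 7.55% and 8.08% and Rad21l at 0.628%, 0.665%, 0.608% and 0.597%. The differences were -0.18, -0.13 and -0.10 on the log2 scale, and the groups still did not overlap. Rec8 was at 1.75%, 1.74%, 2.22% and 2.24%, higher in both Mps1sKO libraries by 0.35. The mitotic subunits were higher by 0.27 (Smc3) to 0.46 (Rad21). The exact two-sided permutation p was 0.33 for each of the 9 ratios, the smallest it can be.

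With Ddx4 alone as the reference, Rec8 was at 12.5%, 13.3%, 16.7% and 16.0% (0.34 higher on the log2 scale) and the groups of Rad21l overlapped. Without Dazl, which gave 33.3% to 35.3% of the marker counts, Rec8 was 0.36 higher. These references were chosen after the counts had been seen.

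**Figure D4:**
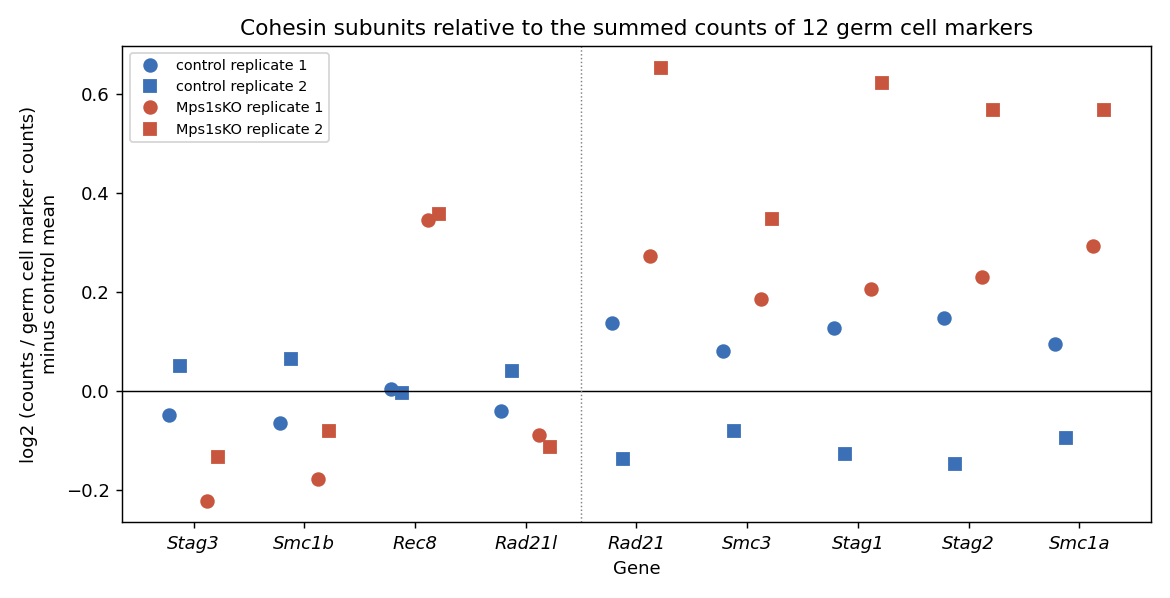
Counts of each cohesin subunit over the summed counts of 12 germ cell markers, as log2 differences from the control mean. Points are single libraries, circles and squares are replicates 1 and 2. Rec8 and the 5 mitotic subunits lie above 0 in both Mps1sKO libraries, and Stag3, Smc1b and Rad21l lie below both control libraries.

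Markers of other stages and cell types were described in the same way. Of 12 markers of undifferentiated spermatogonia 6 were lower and 6 higher, with a median log2 fold change of -0.044, from Sall4 (-0.42) to Nefm (0.67). The relaxed cut-offs were passed as lower by 3 of these 12 and as higher by 1, beside 4.95% and 3.09% of all tested loci. Markers of differentiating spermatogonia had a median of -0.38 over 8 genes, from Prss50 (-0.93) to Ccnd2 (0.30), with Kit at -0.24. Of these 8, 5 passed the relaxed cut-offs as lower and 1 as higher. The cut-offs of the study were passed as lower by 2, beside 0.681% of all tested loci. These 2 lists summed to 464, 401, 393 and 371 CPM and to 895, 916, 838 and 788 CPM. In the second sum the largest parts were Dmrt1, at 278, 257, 247 and 266 CPM, and Ccnd2, at 215, 182, 254 and 235 CPM. That sum therefore depends most on these 2 genes. Of 12 Sertoli markers 11 were tested and all 11 had positive values, with a median of 0.26, from Cldn11 (0.080) to Amh (0.67), and Sox9 at 0.26.

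Of the tested Sertoli markers, 4 passed the relaxed cut-offs as higher, where 3.09% of all tested loci did. The summed level of the Sertoli markers was 5344, 5735, 7118 and 6307 CPM, and Rhox5, at 1 count in control 1 and 0 elsewhere, was not tested. Clu alone was at 2900, 3586, 4399 and 3319 CPM, the largest part of each sum, and its groups overlapped. The sum therefore mostly follows this gene. Leydig cell markers had a median of 0.20 over 8 genes, from Star (-0.66) to Hsd17b3 (0.52). Peritubular, macrophage and endothelial lists of 6 genes each had medians of -0.089, -0.076 and 0.081, with the extremes Tagln (-0.32) and Des (0.079), Cd68 (-0.18) and Ptprc (0.11), and Pecam1 (-0.069) and Cdh5 (0.16). The part that cell composition had in the values of the cohesin subunits was not tested beyond the ratios above.

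The partners of meiotic cohesin in the chromosome axis differed in the same direction as Stag3. SYCP2 and SYCP3 form the axial core on cohesin, HORMAD1 and HORMAD2 mark axes that have not yet synapsed, and SYCP1 spans the synaptonemal complex. All 5 genes were lower in both Mps1sKO libraries than in both control libraries, as were 21.1% of all tested loci. Their median log2 fold change was -0.60. The cut-offs of the study were passed as lower by 3 of them (0.681% of tested loci) and the relaxed cut-offs by 4 (4.95%). An adjusted p of 0.05 in edgeR was passed by 0 of them (0.0292%). Hormad1 was at 18.5, 24.8, 15.1 and 10.9 CPM (log2 fold change -0.74, SE 0.199). Hormad2 had the smallest value at -0.44, from 9.84, 11.5, 9.58 and 6.23 CPM.

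The proteins that load, release, acetylate, protect and cleave cohesin were taken as a list of 20 genes, of which 18 were tested. Their median log2 fold change was -0.12, 12 were negative and 6 positive, 4 passed the relaxed cut-offs as lower (4.95% of all tested loci did) and 0 as higher, and 0 passed the stricter cut-offs or an adjusted p of 0.05 in edgeR. In 7 of them both Mps1sKO libraries were below both control libraries, and in 3 both were above, beside 21.1% and 20.3% of all tested loci. The 2 genes that were not tested, both of the protection group, were Sgo2b, with a single count in Mps1sKO 2, and Meikin, with 7, 14, 6 and 7 counts.

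For loading, the subunits of the loader, Nipbl and Mau2, had log2 fold changes of 0.13 and 0.0091. For release, Wapl, which opens the ring, and its partners Pds5a and Pds5b ran from -0.11 to 0.056. For establishment, the acetyltransferases Esco1 and Esco2, the stabilizer Cdca5 and the deacetylase Hdac8 ran from -0.35 (Esco2) to 0.078 (Hdac8). None of these 9 genes passed the relaxed cut-offs.

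The 4 genes that did pass belong to protection and cleavage. Shugoshins shield centromeric cohesin from separase. Sgo1 was at 24.4, 27.0, 22.1 and 19.1 CPM (log2 fold change -0.32, unadjusted p 0.0355, adjusted p 0.522 in edgeR). Sgo2a, the shugoshin that protects REC8 in meiosis, was at 19.3, 20.5, 16.8 and 15.7 CPM (-0.29, unadjusted p 0.0418). In both genes the groups did not overlap. The phosphatase subunits that shugoshins recruit, Ppp2r1a and Ppp2r5a, had log2 fold changes of 0.18 and 0.086. Ppp2r1a, the highest of the 18, was at 186, 182, 214 and 203 CPM, with both Mps1sKO libraries above both control libraries (unadjusted p 0.0739, adjusted p 0.573 in edgeR).

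Haspin, the histone kinase that marks centromeric chromatin, was at 12.3, 10.7, 8.29 and 9.07 CPM (-0.40, unadjusted p 0.0298). Cdc20, which activates the ubiquitin ligase that frees separase, was at 77.0, 84.3, 55.8 and 65.3 CPM (-0.41, unadjusted p 0.00598). Their adjusted p in edgeR was 0.515 and 0.494. Unlike Stag3, Smc1b and Rad21l, Cdc20 and Haspin were lowest in Mps1sKO 1 and not in Mps1sKO 2. Separase itself (Espl1), securin (Pttg1) and Plk1 ran from -0.15 to -0.11.

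The other SMC complexes of the cell were set beside cohesin. Condensin, which compacts mitotic and meiotic chromosomes, had a median log2 fold change of -0.21 over its 8 subunits. All were negative, from Ncapg2 (-0.31) to Ncaph2 (-0.0073). The relaxed cut-offs were passed as lower by 2 of them, Ncapg2 and Smc4, and by 4.95% of all tested loci. The SMC5/6 complex, which acts in DNA repair, had a median of -0.044 over 7 genes, from Nsmce2 (-0.12) to Eid3 (0.43, from 18 counts or fewer in each library), and 0 passed the relaxed cut-offs. Neither list held a gene with an adjusted p below 0.05 in edgeR.

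Within the longest coding transcripts, the longest stretch of identical bases between members of a class was 11 to 23 bases. Smc3 shared up to 616 bases at 94.5% identity with Gm29763, which had at most 3 counts in a library. Loci that overlap a member, such as Gm38297 inside Stag1, had at most 37 counts. The strand setting of the counting was not given in the sources used here, so reads of antisense loci cannot be told apart, but their own counts were small beside the 159 counts or more of every member.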

How the data were processed

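Total RNA of whole testes was sequenced as NEBNext libraries on an Illumina NovaSeq platform, 2 libraries per genotype label. The submitters' processing notes name HISAT2 2.0.5, featureCounts, DESeq2 1.16.1 and the build mm10, with no role or strand setting stated. The authors deposited 1 table with raw counts per locus, FPKM values and the gene length behind them. Its coordinates matched GENCODE M21 (GRCm38).

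Counts were tested here with edgeR 4.0.16 in R 4.3.3 (filterByExpr, TMM, quasi-likelihood F test on genotype, Benjamini-Hochberg over all tested loci). Of 55820 loci, 284 of them without an annotated identifier, 20561 were tested and 35259 removed. Library totals of 23311689 to 28607746 counts put at least 159 counts behind every value of a member, and precision is set by 2 libraries per group (common biological coefficient of variation 0.106). Deposited FPKM values were used for levels and class shares, without a test. Ratios within a library were compared by exact permutation with SciPy 1.17.1. Pandas 2.3.3, Matplotlib 3.10.9 and BLAST 2.17.0 under Python 3.11.15 served for tables, figures and shared sequence. The script was tested on simulated data with known changes.

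The members, the gene lists and the tests were chosen with earlier results of these data known. All members, every regulator past a cut-off, the largest and smallest value of each other list, Ddx4, Kit, Sox9, Ttk and the 5 genes nearest to Stag3 are named. Smc4, Sycp2, Sycp3, Sycp1, Dazl, Rhox5, Clu, Dmrt1 and the other regulators are given beyond that rule or as list members. Ratios to germ cell markers and between meiotic subunits, transcript lengths and the crossed pairing were added after the data were seen. The fit was repeated with DESeq2 1.42.0, with limma-voom (limma 3.58.1), with the size factors of DESeq2 or plain library totals, without the filter or with a minimum of 10 counts in each library, with robust dispersions, with replicate numbers as a block, on annotated genes alone and without each library in turn. Replicates of a group differed beyond counting noise (chi-square per degree of freedom 8.49 and 11.6), so no pair was counted as 1 sample. The qPCR and the staining of the study were not analysed here.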

Additional observations from a re-analysis of the deposited data

How the results depend on the processing

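Of 286 recomputed values, 249 kept their direction and side of the threshold or moved by less than the replicate spread. Counts of members were taken as kept within a fold of 1.5. For ratios and shares, leaving out 1 of 2 libraries cannot move a mean beyond that spread. The replicate block and the use of FPKM leave a paralog ratio difference unchanged, so these values could only count as kept. Past an adjusted p of 0.05 lay Stag3 with DESeq2 (log2 fold change -0.60), with no filter on low counts (-0.61) and with crossed replicate numbers as a block (-0.61), and Smc1b with the last 2 (-0.56 and -0.56). The members lower at that threshold thus numbered 1, 2 and 2 in place of 0, where 30, 251 and 304 loci in all were lower. Smc1a turned to -0.018 with library size only and to -0.0033 at 10 counts or more in every library. Across the tested loci, the difference of replicate 1 minus replicate 2 in control correlated at -0.19 with that in Mps1sKO. With 2 libraries per group, this value cannot show whether the numbers pair the libraries. The crossed pairing was chosen from these same counts, so the calls under it are not independent support. With the replicate number as a block, 0 members passed the cut-offs of the study and 100 loci in all were lower in place of 140.

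Leaving out 1 library, which leaves a lone library that is assumed to vary like the other group, the log2 fold changes ran from -0.28 to 0.11 for Rec8, -0.75 to -0.33 for Rad21l, -0.78 to -0.42 for Stag3, -0.75 to -0.35 for Smc1b, -0.061 to 0.0049 for Stag2 and -0.063 to 0.067 for Smc1a. The median ran from -0.061 to 0.0049 over the mitotic subunits and from -0.74 to -0.35 over the meiotic subunits, and members lower numbered 0 to 2 at the adjusted p, 0 to 3 at the cut-offs of the study and 2 to 4 at the relaxed cut-offs. Over the same fits the loci lower in all ran from 6 to 76, 78 to 296 and 441 to 1385.

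Shares depend on length. From counts they were, in control and Mps1sKO, 7.30% and 6.87% for Rec8, 2.71% and 1.86% for Rad21l, 33.6% and 25.3% for Stag3 and 53.3% and 43.7% for Smc1b. By the longest coding transcript they were 12.05% and 11.5% for Rec8, 56.9% and 47.3% for Smc1b, and 33.1% for Stag3 in Mps1sKO. The cause of these changes of call was not tested. With 2 libraries per group, the 95% intervals of the mitotic subunits still allow log2 fold changes from -0.41 to 0.23.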
